A study of Homo sapiens with 4 samples.

Results

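The 4 human tropomyosin genes, TPM1, TPM2, TPM3 and TPM4, were described across 4 RNA-seq libraries from 2 glioblastoma cell lines in which the splicing factor SRSF1 had been knocked down. They were taken by name from a deposited table of 40205 rows, of which 16098 reached 1 RPKM in some library. RPKM is the read number scaled to the length of the gene model and to the depth of the library. All 4 genes passed that filter. The family was selected on the RPKM of TPM4, already known to be higher after knockdown in both lines, so its knockdown values are given as a description, with no test. U87MG and U251 are established lines grown from human glioblastoma, an aggressive brain tumour. Each line received a lentivirus at a multiplicity of infection of 20, carrying either the control hairpin sh-NC (labelled WT) or the hairpin sh-SRSF1 (labelled KD), and stable cells were selected with puromycin for a week. The WT cells are therefore infected and selected controls, not untreated cells. There was 1 poly(A)-selected library for each line and arm, and whether a stable line came from 1 or more infections is not given in the sources used here.

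Tropomyosins are coiled-coil proteins that lie end to end along actin filaments. Which form coats a filament affects how myosin motors, severing proteins of the cofilin family and branching complexes reach it. In muscle they act with troponin to gate contraction, and in other cells they mark functionally different filaments such as stress fibres. TPM1, TPM2 and TPM3 supply both muscle and cytoskeletal forms, and TPM4 is best known for a short cytoskeletal form. All 4 make several proteins by alternative promoters and alternative exons. The deposited values are per gene, so isoforms are not separated here. SRSF1 is an SR-family splicing factor that binds exons and affects their inclusion.

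The 4 genes lie apart in the genome. In GENCODE on GRCh38, TPM1 is at chr15:63042632-63071915 on the plus strand and TPM2 at chr9:35681992-35690121 on the minus strand. TPM3 is at chr1:154155304-154194648 on the minus strand and TPM4 at chr19:16067021-16103005 on the plus strand. The reads were aligned to hg19, so these positions serve only to locate the genes. Among the long coding forms, pairs of the 4 genes shared 71.9% (TPM1 and TPM3) to 78.8% (TPM2 and TPM4) of aligned coding bases. Printed here is the stretch of 60 coding bases in which the other 3 genes together were most like TPM4. Only stretches aligned without gaps in all 6 sequences shown were searched, so more alike ones may lie elsewhere. Beneath the 4 genes stand 2 processed pseudogenes, LOC643634 (RefSeq symbol TPM4P2) and TPM3P8, whose rows return in the results. The sequences are those of GENCODE transcripts, written 5′ to 3′ on the coding strand, and each stretch of the 4 genes spans 2 exons. Capitals mark bases that differ from TPM4.
TPM4: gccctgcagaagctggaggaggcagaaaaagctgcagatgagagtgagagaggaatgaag
TPM1: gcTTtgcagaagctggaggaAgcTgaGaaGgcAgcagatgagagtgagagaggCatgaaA
TPM2: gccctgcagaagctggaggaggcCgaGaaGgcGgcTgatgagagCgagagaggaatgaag
TPM3: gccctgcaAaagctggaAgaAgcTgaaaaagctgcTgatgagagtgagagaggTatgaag
LOC643634: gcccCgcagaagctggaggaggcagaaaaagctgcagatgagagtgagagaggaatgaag
TPM3P8: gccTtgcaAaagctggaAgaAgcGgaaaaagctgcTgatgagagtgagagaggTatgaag
In this stretch TPM1 differed from TPM4 at 9 bases, and TPM2 and TPM3 at 6 each, while the pseudogene LOC643634 differed at 1. In the full coding alignment the longest run identical to TPM4 was 35 bases in TPM2, 29 in TPM3 and 20 in TPM1. Over the whole aligned length LOC643634 shared 90.7% of bases with TPM4, with an identical run of 153 bases. TPM3P8 shared 94.9% with TPM3, with an identical run of 65 bases. Of the 31-base words in the longest TPM4 transcript, 0.19% also occurred in another tropomyosin gene, but 40.3% occurred in a tropomyosin pseudogene. The corresponding shares were 0.577% and 14.6% for TPM3, 1.10% and 0.441% for TPM2, and 0.255% and 0% for TPM1. Words found in any other gene at all, on either strand and so including genes that overlap on the opposite strand, made up 54.4% for TPM4, 42.6% for TPM1, 18.3% for TPM3 and 1.17% for TPM2. How reads that fit several places were counted is not given in the sources used here.

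The libraries held 25099799 to 27953878 reads, recovered from the steps of the RPKM values. SRSF1, the targeted gene, was at 88.3 RPKM in U87MG control and 14.6 in U87MG KD, and at 109 in U251 control and 15.8 in U251 KD. Its log2 estimate was -2.62 ± 0.16 (SE, limma, adjusted p = 0.00217), lower in both lines. Like every other call of the knockdown comparison, this one was lost without a filter on low values and without the cell line as a block. Of all genes tested, 186 were called higher and 420 lower in KD over both lines. After trimmed-mean rescaling the split was 47 higher and 52 lower. Of 9 glioma and astrocyte markers, 8 reached 1 RPKM somewhere, with sums of 1305 to 1883 made up mostly of vimentin. The lines differed in several of them. SOX2 was at 0.12 and 0.05 RPKM in U87MG control and KD, and at 47.9 and 49.3 in U251. NES was at 1.79 and 1.29 in U87MG and 61.1 and 83.7 in U251, and FABP7 was at 0 in both U87MG libraries. VIM and OLIG2 were higher in U87MG in each arm. GFAP, the classical astrocyte filament gene, was at 1.47 RPKM or less in every library, and S100B stayed below 1. Muscle markers, which bear on tropomyosin directly, summed to 2.98 to 8.36 RPKM over 8 genes, and MYOD1, MYOG, CKM, MYH2 and ACTN2 were below 1 throughout. Fibroblast markers summed to 8.69 in U87MG control and 6.27 in U87MG KD, and to 182 and 186 in U251, there nearly all COL1A2, with COL3A1, DCN and LUM below 1. Leukocyte markers summed to 64.0 in U87MG control and 111 in U87MG KD, nearly all CD68, and to 9.11 and 11.1 in U251, with PTPRC, AIF1 and ITGAM below 1. Fewer cells of a type and less RNA per cell cannot be told apart in bulk libraries.

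TPM4 RNA was about 3 times as high in the knockdown cells of either line. Its level was 279 RPKM in U87MG control and 832 in U87MG KD, and 205 in U251 control and 600 in U251 KD. Both KD libraries lay above both controls, but the family was chosen because TPM4 rose in both lines, so nothing is read from this. These levels rest on 19398, 57154, 13641 and 44335 recovered reads in the same order, so counting error was small. Per library read, the KD to control ratio was 2.98 (95% interval 2.93 to 3.03, counting error only) in U87MG and 2.92 (2.86 to 2.98) in U251. On the log2(RPKM + 1) scale the estimate over both lines was 1.56 ± 0.14 (SE of the fit across all genes). By level TPM4 moved from place 224 to place 68 of all rows in U87MG, and from 266 to 78 in U251.

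A total of 9 other genes of 16097 had ratios at or above those of TPM4 in both lines. Among them were the histone genes HIST1H2AC, HIST1H2BD and HIST1H2BK, and PTX3, PTHLH and TLCD2, named after their values were seen. At 2-fold or more, 2.33% of all genes tested were higher and 3.58% lower in U87MG KD, against 1.17% higher and 1.71% lower in U251 KD. Among the tropomyosins TPM4 was the 1 of 4 at 2-fold higher in each line, and 0 of 4 were at 2-fold lower. Over both lines 1.16% of genes tested were called higher and 2.61% lower. Because TPM4 set the choice of the family, nothing is read from these shares about it.

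**Figure D1:**
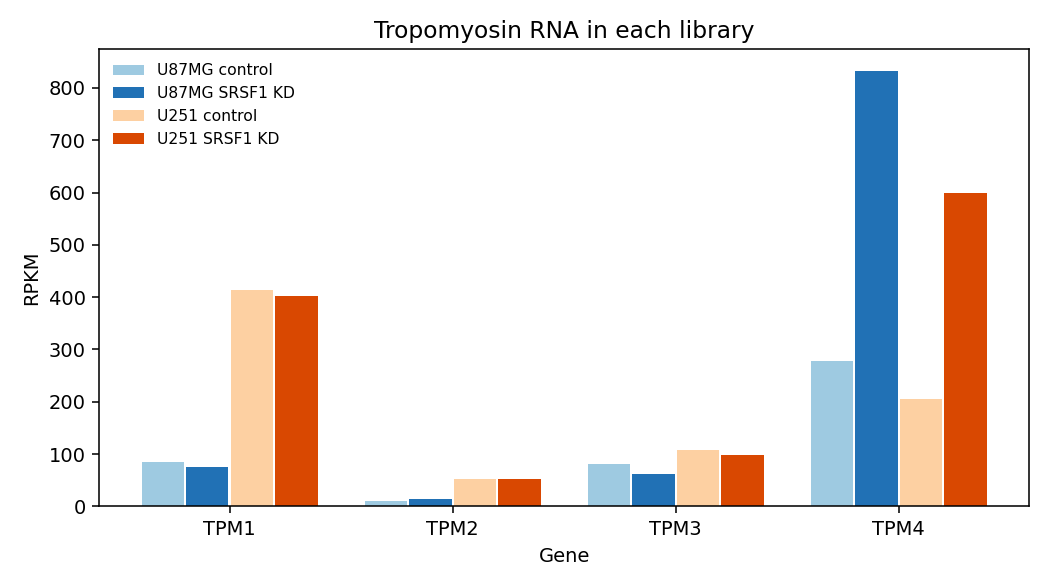
RPKM (linear axis) of the 4 tropomyosin genes, with 1 bar for each library and no error bars, since there was 1 library for each line and arm. TPM4 stands at 832 and 600 in the 2 KD libraries against 279 and 205 in the controls, while the bars of TPM1, TPM2 and TPM3 pair up by cell line.

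The paralogs did not follow TPM4. TPM1, whose products include the high-molecular-weight forms of stress fibres, was at 84.3 RPKM in U87MG control and 76.0 in U87MG KD. In U251 it was at 413 in control and 402 in KD. KD was slightly below control in each line, but the gap between the lines was far larger, so the arms overlapped. The read ratios were 0.901 (0.868 to 0.936) in U87MG and 0.973 (0.957 to 0.989) in U251, and the log2 estimate was -0.09 ± 0.15, within its SE of 0.

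TPM3, which supplies short cytoskeletal forms beside a slow-muscle form, was at 81.6 RPKM in U87MG control and 61.9 in U87MG KD. In U251 it was at 107 in control and 98.7 in KD. KD was the lower library in each line. The read ratios were 0.759 (0.740 to 0.777) and 0.922 (0.903 to 0.940), and the estimate over both lines was -0.25 ± 0.16. In U87MG 20.7% of all genes tested had a lower ratio than TPM3, and in U251 36.8% did, so its values lay inside the bulk of genes.

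TPM2, the beta-tropomyosin gene, had the lowest level of the family in all 4 libraries. It was at 10.6 RPKM in U87MG control and 14.3 in U87MG KD, and at 52.5 and 52.7 in U251. It was higher in U87MG KD by a read ratio of 1.35 (1.21 to 1.51), and level in U251 at 1.0 (0.953 to 1.06). The U87MG ratio rests on 581 and 777 reads. The estimate over both lines was 0.20 ± 0.18. With 1 library for each line and arm, the gap between the lines' ratios was not tested beyond counting error.

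**Figure D2:**
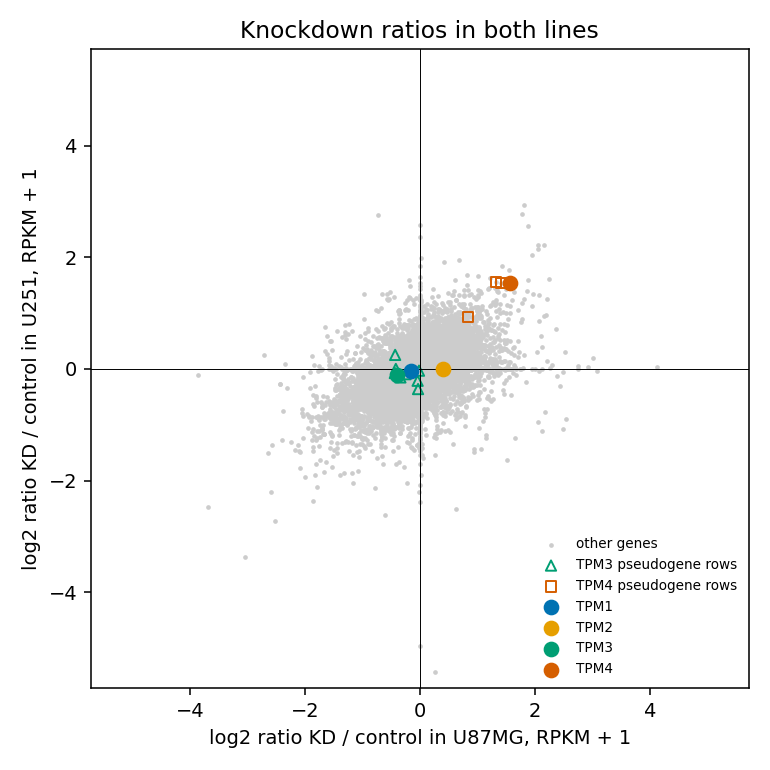
Log2 ratio of KD to control (RPKM + 1) in U87MG (horizontal) and U251 (vertical), with 1 grey point for each gene tested, filled circles for the 4 tropomyosins and open symbols for their pseudogene rows that were tested. TPM4 lies at 1.57 and 1.54, and TPM1, TPM2 and TPM3 lie near the centre, TPM2 at 0.40 and 0.01 and TPM3 at -0.39 and -0.12.

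Because TPM4 was abundant at the outset, its change set that of the summed family. The 4 RPKM values summed to 455 in U87MG control and 984 in U87MG KD, a ratio of 2.16. In U251 the sum was 778 in control and 1153 in KD, a ratio of 1.48. TPM4 alone differed by 553 RPKM in U87MG and by 394 in U251, more than the whole difference of the sums, 529 and 375. Without TPM4 the sum was 177 in control and 152 in KD in U87MG, and 573 and 553 in U251. That remainder was thus 0.862 and 0.966 times the control level, the opposite direction to the full sum.

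The make-up of the family shifted accordingly. TPM4 supplied 61.2% of the summed RPKM in U87MG control and 84.5% in U87MG KD, and 26.4% in U251 control and 52.0% in U251 KD. The share of TPM1 was 18.5% in U87MG control and 7.72% in U87MG KD, and 53.1% and 34.9% in U251. TPM3 held 17.9% and 6.29% in U87MG and 13.8% and 8.56% in U251, and TPM2 6.75% or less in every library. The sums were close to equal in the 2 KD lines, where U251 stood 1.17 times as high as U87MG, against 1.71 times in the controls. Weighting by length mattered, since the gene model of TPM3 came out at 7099 bases against 2089 to 2645 for the other 3. By reads in place of RPKM, the family ratio was 1.84 in U87MG and 1.38 in U251, and the TPM4 share 47.3% and 76.7% in U87MG control and KD, and 21.8% and 46.0% in U251.

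**Figure D3:**
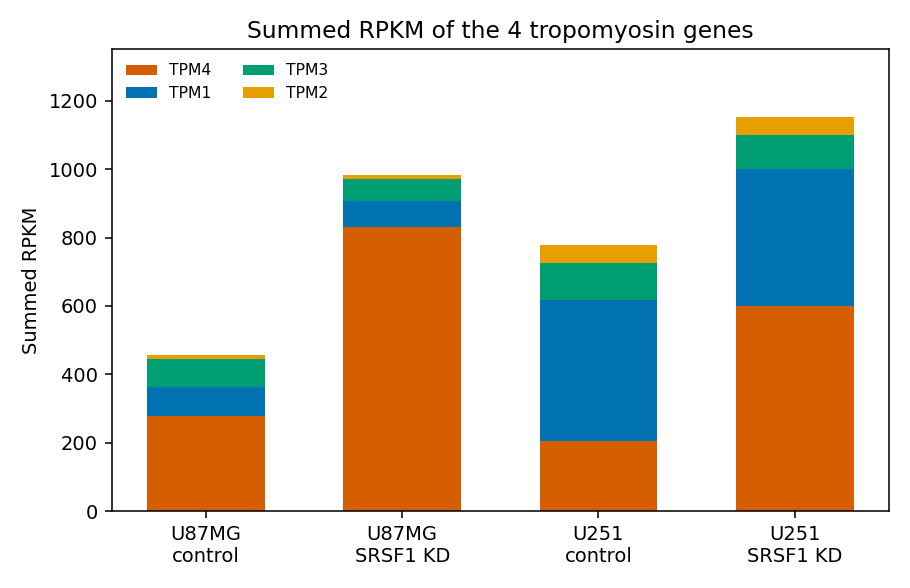
Summed RPKM of the 4 tropomyosin genes in each library, stacked by gene on a linear axis that starts at 0. The TPM4 segment carries the whole rise of the bars, from 455 to 984 in U87MG and from 778 to 1153 in U251.

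By RPKM of the gene rows alone, the order of the genes differed between the lines and, in U251, between the arms. U87MG control ran TPM4, TPM1, TPM3 and TPM2 from high to low. TPM1 and TPM3 differed there by 0.05 on the log2 scale, beside residual SDs of 0.15 and 0.16 in the fit. Those SDs describe each gene's spread over the lines and arms, not error between genes within a library. The order of TPM1 and TPM3 was therefore not tested, and nothing is read from it. The order in U87MG KD was the same, with TPM1 and TPM3 0.29 apart. In U251 control TPM1 led, 2.01 times TPM4, which was 1.92 times TPM3. In U251 KD TPM4 stood 1.49 times as high as TPM1, a gap of 0.58 on the log2 scale. TPM3 and then TPM2 came last in both U251 libraries. The order depends on the measure: by reads, TPM3 stood above TPM1 in U87MG control, at 15239 against 5805. With the RPKM of its pseudogene rows added, TPM4 came to 504 in U251 control, above TPM1 at 413. That sum adds rows of unlike model length, such as 609 bases for LOC643634 and 2645 for TPM4. By recovered reads TPM4 with its copies stayed below TPM1 there, at 18246 against 27125. Read numbers of pseudogene rows are the smallest that fit, so this order is not settled either.

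The difference between the cell lines was not used to choose the family and could be tested. Here the 4 genes behaved differently from one another: TPM1, TPM2 and TPM3 were lower in U87MG than in U251, and TPM4 was higher. Of all genes tested, 21.6% were called higher and 27% lower in U87MG, so a call in this comparison is common. TPM1 differed by -2.33 ± 0.15 (log2, SE; limma, adjusted p = 1.76e-05). In linear terms its U251 level was 4.90 times the U87MG level in controls and 5.29 times in KD. TPM2 differed by -2.01 ± 0.18 (limma, adjusted p = 8.97e-05), at 4.97 times in controls and 3.68 times in KD. TPM3 differed by -0.53 ± 0.16 (limma, adjusted p = 0.0296), at 1.31 and 1.59 times.

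TPM4 was higher in U87MG by 0.46 ± 0.14 (limma, adjusted p = 0.0267), and U251 stood at 0.737 of the U87MG level in controls and 0.721 in KD. Quantile normalization took that estimate to 0.16 ± 0.13 (limma, adjusted p = 0.342). The TPM4 call was also lost without a filter on low values, without the arm in the model and without the intensity trend, and the TPM3 call in the first and second of these. COL1A2, the most abundant fibroblast marker in U251, was at 3.37 and 4.27 RPKM in U87MG and 174 and 182 in U251. That is the same direction as TPM1 and TPM2, and the part of COL1A2 in their difference was not tested. The fibroblast markers were mixed: COL1A1 and PDGFRB were also higher in U251, but COL3A1, DCN and LUM, all low, were higher in U87MG. The 3 tropomyosin genes without TPM4 summed to 3.24 times as much in U251 control as in U87MG control.

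Tropomyosin pseudogenes held a sizeable part of the reads. Processed pseudogenes are copies of spliced messenger RNA inserted back into the genome, and reads from the parent gene can fit them. The table had 15 rows described as tropomyosin pseudogenes. Its descriptions assign 3 of them to TPM1 and 1 to TPM4, but RefSeq names 2 of those 3, LOC643634 and LOC100129096, as TPM4 copies. With the RefSeq symbols, followed here, there were 11 copies of TPM3, 3 of TPM4, 1 of TPM1 and 0 of TPM2. Of these rows, 4 stayed below an RPKM of 1 in every library, and 5 exceeded 20.

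The TPM4 copies moved with TPM4. LOC643634 (RefSeq symbol TPM4P2) was at 278 RPKM in U87MG control and 745 in U87MG KD. In U251 it was at 207 in control and 605 in KD, close to the TPM4 level in every library and farthest from it in U87MG KD. LOC100129096 (RefSeq symbol TPM4P3) was at 117, 295, 90.6 and 269 RPKM, in the order U87MG control, U87MG KD, U251 control and U251 KD. TPM4P1 was near the filter at 1.07, 2.70, 0.769 and 2.38 RPKM in that order. Of the 31-base words of LOC643634, 37.6% occurred in TPM4, and of those of LOC100129096 42.3%. Together the 3 copies held 22.5% to 25.3% of the reads of TPM4 and its copies, and with them the read ratio was 2.90 in U87MG and 2.92 in U251, close to that of the gene row.

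The 3 most abundant TPM3 copies had ratios near those of TPM3. LOC146253 was at 68.6, 51.1, 86.2 and 86.2 RPKM in the same order of libraries. TPM3P5 was at 41.3, 30.3, 51.6 and 49.0, and TPM3P8 at 26.6, 20.9, 38.5 and 34.5. Each of these 3 was lower in U87MG KD than in its control, and in U251 their read ratios lay between 0.897 (TPM3P8) and 1.0 (LOC146253). Rarer copies departed from this. LOC751603 had a read ratio of 0.684 (0.556 to 0.839) in U87MG but 1.23 (1.05 to 1.44) in U251, the opposite side of 1 from TPM3. TPM3P7, on 6 and 11 reads, had 1.86 (0.629 to 6.11) in U87MG. The 11 copies held 34.5% to 36.3% of the reads of TPM3 and its copies, and with them the TPM3 read ratio was 0.756 in U87MG and 0.937 in U251. With all 15 rows added, the family's reads had a ratio of 1.77 in U87MG and 1.42 in U251. Model lengths, and so read numbers, are the smallest that fit the deposited values, and those of a pseudogene row can be a fraction of the true ones. Whether the copies are themselves transcribed in these cells was not tested.

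**Figure D4:**
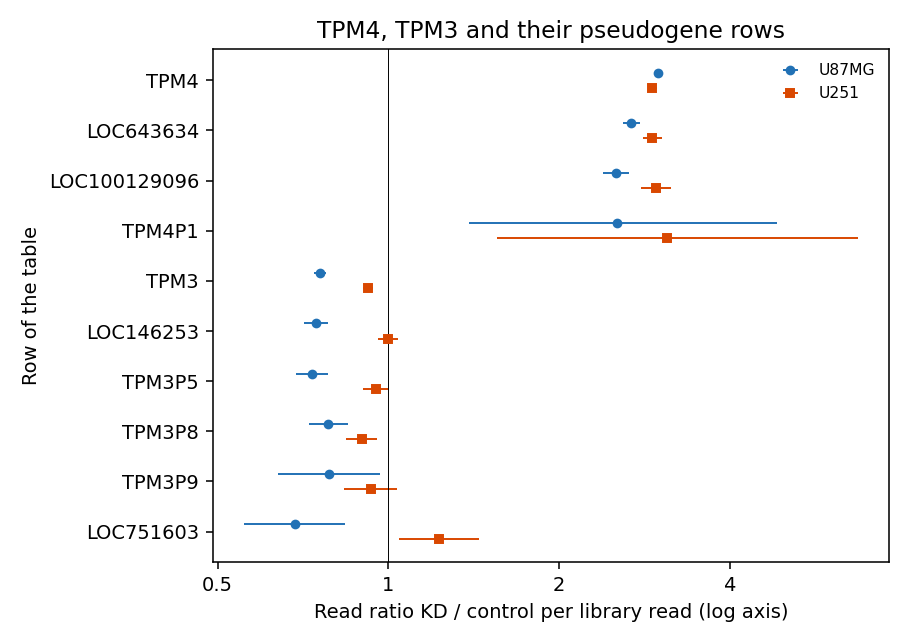
Read ratio of KD to control per library read (log axis) for TPM4, TPM3 and 8 of their pseudogene rows in U87MG (circles) and U251 (squares), with 95% exact intervals that cover counting error only. The TPM4 rows lie between 2.52 and 3.10 and the TPM3 rows between 0.684 and 1.23.

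Promoter windows of the family were searched for the letters of a known element. The CArG box is the short element that serum response factor (SRF) binds, and it is known from many actin cytoskeleton genes. RefSeq windows (GRCh38.p14) reach from 250 bases before to 50 bases after a start, and there were 8 for the family, 1 for TPM1, 2 each for TPM2 and TPM3 and 3 for TPM4. On either strand the box was found in the most upstream TPM4 window and in none of the other 7. The windows leave out the outermost GENCODE starts of TPM1 and TPM3. On the plus strand, TPM1 begins at 63042632, but its window is chr15:63048239-63048538. TPM3, on the minus strand, begins at 154194648, but its windows reach only to 154183468. Whether the paralogs lack the box at those starts was therefore not tested. The window, chr19:16067288-16067587 on the plus strand, is shown with the box in capitals, which begins 173 bases upstream of the start.
TPM4 upstream window: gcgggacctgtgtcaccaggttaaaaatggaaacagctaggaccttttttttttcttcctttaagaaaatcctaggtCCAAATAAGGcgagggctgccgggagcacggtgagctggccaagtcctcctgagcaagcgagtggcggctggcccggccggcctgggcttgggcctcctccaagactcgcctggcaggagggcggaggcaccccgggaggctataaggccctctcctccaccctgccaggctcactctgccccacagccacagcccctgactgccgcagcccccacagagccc
Of 35116 windows of this length 1.29% held the box. The letters GGAATG of the TEAD factors, on either strand, were in 14.0% of windows and in none of the 8. Among the listed actin genes, 11 others held a CArG box, of which 8 were measured and 0 were called in the knockdown comparison, beside 1.16% of all genes called higher and 2.61% lower. Their log2 ratios ran from -0.54 to 0.31 in U87MG and from -0.72 to 0.31 in U251. SRF itself was at 7.94 RPKM in U87MG control and 8.01 in KD, and at 12.3 and 13.1 in U251. Over the 143 measured genes with the box the median log2 ratio was -0.10 in U87MG and -0.05 in U251, against -0.06 and -0.01 over the 9242 measured genes with a window. Of the 143, 2 were called higher and 4 lower, against 102 and 282 of the 9242. These are matches of letters, and the deposited values do not show which TPM4 start was used.

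The genes whose levels ran most like those of TPM4 over the 4 libraries were, first, its own copies. Likeness was the Euclidean distance of log2(RPKM + 1) after centring each gene over the libraries, among 7304 genes at 5 RPKM or more throughout. LOC643634 was nearest to TPM4 at 0.15, then LOC100129096 at 0.27, HABP4 at 0.43, PRKAG2 at 0.48 and MCCC1 at 0.51. PRKAG2, a regulatory subunit gene of AMP-activated kinase, was at 11.9 and 35.7 RPKM in U87MG control and KD and at 12.7 and 26.6 in U251. For TPM1 the nearest were PEG10, ID2 and VLDLR, and for TPM3 PAF1, METAP2 and the copy TPM3P5. TPM2 ran most like MYLK, the myosin light chain kinase, at a distance of 0.13, followed by PAWR and SNAPC3. MYLK was at 5.09 and 6.53 RPKM in U87MG control and KD, and at 24.0 and 24.9 in U251. Among paralogs, TPM1 and TPM2 were 0.51 apart, and TPM4 was 2.07 from TPM3, 2.82 from TPM2 and 3.24 from TPM1.

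Genes of the proteins that share filaments with tropomyosin were set beside all genes tested. Of 89 genes in 9 lists of actin partners, 79 were measured, and 2 were called higher and 0 lower in KD (limma, adjusted over all genes), beside 1.16% and 2.61% of all genes. At an unadjusted p under 0.05 there were 19 of the 79, beside 3400 of all 16098 genes. Their median log2 ratio was -0.12 in U87MG and 0.01 in U251, against -0.05 and -0.00 over all genes tested. Both calls were lost with a pseudocount of 5, without a filter on low values, without the cell line as a block and without the intensity trend, and that of LIMK1 also with trimmed-mean rescaling.

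Both called genes act on filament turnover. CTTN, or cortactin, which stabilises branched filaments, was at 154 RPKM in U87MG control and 286 in U87MG KD, and at 67.3 and 130 in U251. It was called in the list of the Arp2/3 complex and its activators, where it was 1 of 14 measured genes, with an estimate of 0.91 ± 0.15 (limma, adjusted p = 0.0251). LIMK1, the kinase that switches off cofilin, was at 18.8 and 32.3 RPKM in U87MG control and KD, and at 10.9 and 20.2 in U251. It was 1 of 12 measured genes of filament severing and its control, at 0.79 ± 0.16 (limma, adjusted p = 0.0449). In that list SSH1, the phosphatase that switches cofilin back on, was at 5.90 and 3.39 RPKM in U87MG and 4.36 and 2.22 in U251. It did not pass the test, at -0.69 ± 0.17 (limma, adjusted p = 0.0661).

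In the other 7 actin lists 0 genes were called in either direction. Among 4 measured actins the 2 cytoskeletal genes dominated, with ACTG1 at 2158 and 1833 RPKM in U87MG control and KD and at 2793 and 2539 in U251. ACTB was at 1053 and 921 in U87MG and at 1885 and 1881 in U251. Among 3 measured tropomodulins, which cap the pointed filament end and bind tropomyosin there, TMOD3 was the most abundant, at 20.2 and 18.0 RPKM in U87MG and 22.7 and 26.8 in U251. Of 11 measured genes of nonmuscle myosin II and its regulators, MYL12A, a regulatory light chain gene, was at 377 and 490 RPKM in U87MG and 384 and 490 in U251, with an estimate of 0.36 ± 0.14 (limma, adjusted p = 0.185). Of 7 measured genes in the list of caldesmon, calponins and transgelins, CNN3, an actin-binding calponin, was at 3.31 and 4.21 RPKM in U87MG and 384 and 546 in U251, with an estimate of 0.39 ± 0.16 (limma, adjusted p = 0.231).

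Of 13 measured crosslinkers and adhesion plaque genes, 2 had a ratio above 0 in U87MG and 4 did in U251. Of all 16098 genes tested, 6961 were above 0 in U87MG and 7798 in U251. The medians of the list were -0.37 for U87MG and -0.07 for U251, against -0.05 and -0.00 over all genes tested. LIMA1, which binds and bundles filaments and had a ratio above 0 in both lines, was at 107 and 162 RPKM in U87MG and 106 and 138 in U251, with an estimate of 0.48 ± 0.16 (limma, adjusted p = 0.136). In U87MG FLNC, a filamin gene, was at 93.9 RPKM in control and 49.1 in KD, and in U251 it was below 0.5 in both arms. Of 12 measured formins, which assemble unbranched filaments, DAAM1 was at 4.12 and 10.9 RPKM in U87MG and 6.29 and 9.76 in U251, just outside the threshold at 0.89 ± 0.20 (limma, adjusted p = 0.055). DIAPH3 had the lowest estimate of the formins, -0.84 ± 0.22 (limma, adjusted p = 0.0811). Among SRF and its coactivators, 3 of 4 were measured and 0 called.

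Between the lines, 20 of the 79 actin partners were higher and 29 lower in U87MG, beside 21.6% and 27% of all genes. CNN3 and CNN2 were among the lower, by -6.60 ± 0.16 (limma, adjusted p = 6.15e-07) and -4.77 ± 0.17 (limma, adjusted p = 1.07e-06). CALD1, or caldesmon, which binds tropomyosin-coated filaments, was lower in U87MG by -1.25 ± 0.16 (limma, adjusted p = 0.000581), the same direction as TPM1 and TPM2. Other partners ran the opposite way: FLNC was higher in U87MG by 5.60 ± 0.22 (limma, adjusted p = 1.98e-06), TAGLN3 by 4.16 ± 0.19 (limma, adjusted p = 3.91e-06) and MYL9 by 2.73 ± 0.26 (limma, adjusted p = 0.000139).

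Of the 8 troponins, the partners of tropomyosin in striated muscle, 1 was measured. TNNT1, the slow skeletal troponin T gene, was at 180 and 203 RPKM in U87MG control and KD and at 12.5 and 12.1 in U251. It was higher in U87MG by 3.85 ± 0.16 (limma, adjusted p = 2.80e-06), the opposite direction to TPM1 and TPM2, and its knockdown estimate was 0.06 ± 0.16 (limma, adjusted p = 0.862). The other 7 troponins stayed below an RPKM of 1, as did the master muscle regulators MYOD1 and MYOG.

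RNA-binding proteins known from studies of tropomyosin exons formed the last list, and all 9 were measured. HNRNPH1 was called lower and 0 were called higher, beside 2.61% and 1.16% of all genes. HNRNPH1 was at 297 RPKM in U87MG control and 125 in U87MG KD, and at 512 and 310 in U251, with an estimate of -0.98 ± 0.17 (limma, adjusted p = 0.0286). This call was lost under the same 5 settings as that of LIMK1. PTBP1, a repressor of TPM1 exons in the textbook example of mutually exclusive splicing, was at 60.7 and 36.1 RPKM in U87MG and 67.7 and 43.1 in U251. Its estimate of -0.69 ± 0.16 missed the threshold (limma, adjusted p = 0.0613). In each line 1 of the 9 ratios was above 0, that of CELF1, at 0.42 in U87MG and 0.32 in U251. Among all 16098 genes tested, 6961 had a U87MG ratio above 0 and 7798 a U251 ratio above 0. The list's median log2 ratio was -0.33 in each line, where the medians of all genes were -0.05 for U87MG and -0.00 for U251. Exon use in the tropomyosin genes cannot be read from values per gene.

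**Figure D5:**
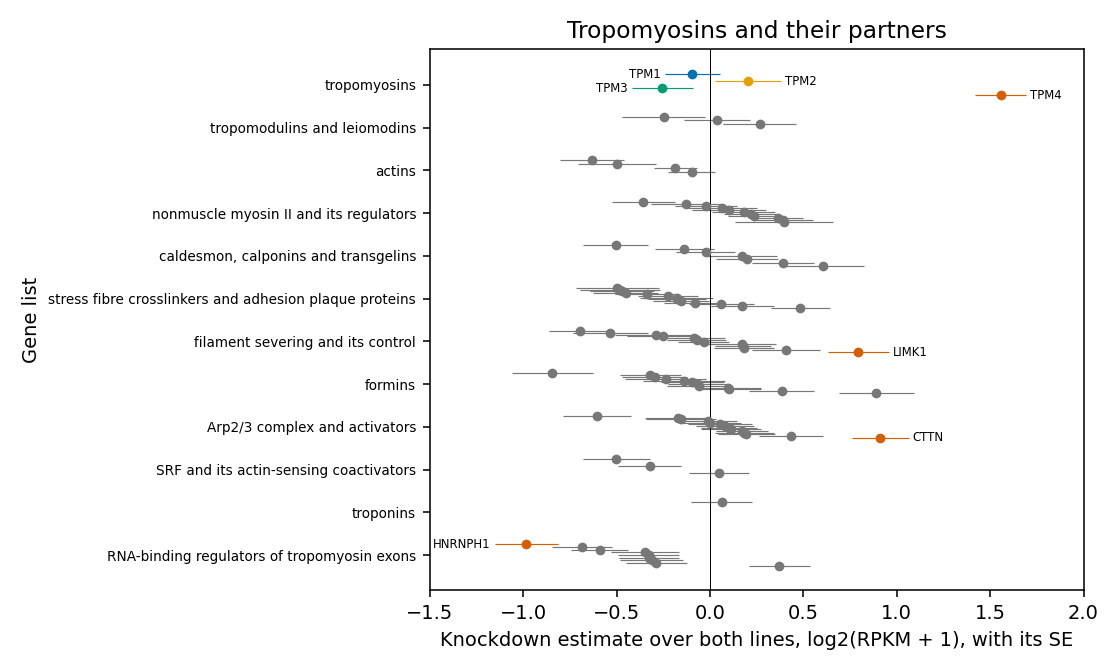
Knockdown estimate over both lines on the log2(RPKM + 1) scale, with its SE as the bar, for each tropomyosin and each measured gene of the 11 other lists. Orange points with a name below the top line passed the adjusted threshold of 0.05 (LIMK1, CTTN and HNRNPH1), and the tropomyosins are shown with no test, TPM4 at 1.56.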

How the data were processed

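The authors deposited RPKM values per gene for 4 poly(A) libraries, read paired-end on a HiSeq2000 per the labels. The submitters' processing notes name Bowtie 0.12.2 and the build hg19. Nothing used here states the counting program, annotation or strand setting, so overlapping antisense genes cannot be told apart.

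Limma 3.58.1 (R 4.3.3) was fitted to log2(RPKM + 1) of 16098 genes with the cell line as a block, an intensity trend, two-sided tests and Benjamini-Hochberg adjustment, with calls at 0.05. A fold on that scale understates changes of low genes. The fit leaves 1 residual degree of freedom, and its p-values cover the spread among these 4 libraries alone, which may be technical. On simulated data of the same shape the fit was checked for recovery of known changes. The simulated noise had an assumed size and was independent between libraries, and changed genes changed alike in both lines. The check therefore cannot speak for the calls in these data, and no support is taken from it.

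RPKM values of low genes step by the value of 1 read. Library totals came from small RNAs of known length. With them 27928 of 27973 genes (99.8%) came out as whole reads within 0.01 reads in every library. After multiplication by random factors 0.6% of 500 abundant genes did. Counting intervals (95%, exact Clopper-Pearson) were taken on the KD share of reads and scaled by depth. They cover counting error only.

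The members, gene lists and tests were chosen with earlier results of these data known. Named genes were the family, SRSF1, list members called in KD, up to 4 others per list with the largest estimate at an RPKM of at least 5, and the nearest genes by pattern (5 for TPM4, 3 for each paralog). The text gives values for part of them. Genes named beyond this rule are the pseudogenes, which were looked at after 2 of them were seen nearest to TPM4, and some of the 9 genes at or above TPM4, of which the others are not reported here. Alternatives were 8 settings for each comparison, and scaling, composition and reads for the sums. Sequences came from GENCODE transcripts and RefSeq promoter windows.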

Additional observations from a re-analysis of the deposited data

Results flagged for a closer look

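TMOD3, a cap of the pointed filament end that binds tropomyosin, moved in opposite directions in the 2 lines. Its log2 ratio of KD to control was -0.16 in U87MG and 0.23 in U251, a difference of -0.39 (U87MG minus U251). With 1 library for each line and arm this difference was not tested.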

How the results depend on the processing

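The knockdown estimate of TPM4 over both lines ran from 1.47 to 1.62 over the 8 alternatives. That of TPM1 ran from -0.19 to -0.03, TPM2 from 0.16 to 0.26 and TPM3 from -0.28 to -0.19, so none of these changed sign. The filter, block and trend settings cannot change these estimates, so only the pseudocount and scaling settings bear on this. Within U251 the log2 ratio of TPM2 was 0.005, and it was -0.071 with quantile normalization. Between the lines TPM1 and TPM2 kept their calls in all 8. Calls lost there by limma's adjusted p were TPM3 without a low-value filter (-0.53, adjusted p = 0.0869) and without the arm (-0.53, adjusted p = 0.117). TPM4 lost its call without the filter (0.46, adjusted p = 0.135), without the arm (0.46, adjusted p = 0.651), without the trend (0.46, adjusted p = 0.062) and with quantile normalization (0.16, adjusted p = 0.342). Of the actin partners, 0 were called higher in KD with a pseudocount of 5, without the filter, without the cell line block and without the trend (8, 7, 1 and 6 genes at an unadjusted p under 0.05), 1 with trimmed-mean rescaling and 3 with quantile normalization or an RPKM minimum of 5. With that minimum 1 was called lower. Between the lines 16 of them were lower without the filter and 17 without the arm. The estimate of SRSF1 stayed at -2.62 without the filter (limma, adjusted p = 0.416) and without the block (limma, adjusted p = 1.0), where its call was lost. Over all genes, 0 were called by limma in KD without the filter or the block (3124 and 262 at an unadjusted p under 0.05), 26 higher and 52 lower with a pseudocount of 5, and 88 and 172 without the trend.

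The log2 ratio of the summed RPKM, 1.11 in U87MG and 0.57 in U251, turned to -0.21 and -0.050 without TPM4, which holds the rise by construction. It was 1.20 and 0.60 with trimmed-mean rescaling, 0.97 and 0.47 with quantile normalization, 1.30 and 0.65 without TPM3, 0.88 and 0.47 by reads, and 0.83 and 0.50 by reads with all copies, an alternative chosen after seeing the data. The TPM4 share in U87MG control, U87MG KD, U251 control and U251 KD was 59.8%, 82.3%, 25.6% and 52.9% with quantile normalization and 74.6%, 90.2%, 30.6% and 56.9% without TPM3. By reads it was 47.3%, 76.7%, 21.8% and 46.0%, and with all copies 46.5%, 75.9%, 23.5% and 48.4%. The cause of these shifts was not tested. The fit already compares KD with control within each cell line, and the values without that block are given above. No paired analysis was possible because, beyond the cell line, each line and arm had 1 library and so no replicate numbers to pair. Leaving a library out would leave no residual degrees of freedom, so the ratios within each line stand in its place. Depth limits TPM2 in U87MG, at 581 and 777 reads, more than the other 3 genes.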

Other observations

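The genes beside TPM4 did not share its direction in both lines. RAB8A, a vesicle-traffic GTPase gene that is the nearest neighbour at higher coordinates, 8624 bases away on GRCh38, was at 79.7 RPKM in U87MG control and 53.8 in KD, and at 89.7 and 96.3 in U251. OR10H4, the olfactory receptor gene on the other side, was at 0 in all 4 libraries. Beside TPM1, LACTB was at 61.7 and 103 RPKM in U87MG control and KD and at 51.9 and 75.7 in U251, higher in KD in each line, while TPM1 itself was at or slightly below its control. Beside TPM2, TLN1 (talin 1, which links integrins to actin) was at 131 and 128 RPKM in U87MG and 131 and 170 in U251. CA9, a hypoxia-responsive carbonic anhydrase gene 833 bases from TPM2 on the other side, was at 1.22 and 2.33 RPKM in U87MG and 74.9 and 62.8 in U251. Both CA9 and TPM2 were thus higher in U251, and no test of a shared pattern was made.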
